A study of Sus scrofa with 8 samples.

Results

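Dense CTCF clusters in pig embryonic fibroblasts (PEFs) were stretches of the genome in which at least 3 CTCF peaks followed each other with no more than 5 kb between neighbouring summits, the summit being the base of highest signal in a peak. They were chosen from the peak positions: CTCF peaks of replicate 1 on chromosomes 1 to 18 and X that overlapped a CTCF peak of replicate 2 by at least 1 bp were taken as shared peaks, joined by the distance between their summits, and kept where 3 or more were joined. There were 645 such clusters, holding 2114 of the 38239 shared CTCF peaks (5.53%). They are compared with the 29417 isolated peaks, which had no other shared peak within 5 kb (76.9%), and with the 6708 peaks in 3354 runs of 2 (17.5%). The number, size and spacing of the clusters follow from the rule and are given as descriptions.

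CTCF is a zinc finger protein that binds a long, non-palindromic DNA motif. Cohesin extruding a chromatin loop tends to be stopped by CTCF that faces it, so the strand of the motif matters as well as its place, and loop anchors often carry motifs that point towards each other. Several CTCF sites next to each other are known from domain borders and from gene families such as the protocadherins and the HOX genes. H3K4me3 marks promoters, and H3K27ac marks active promoters and enhancers.

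The fibroblasts were isolated from fetuses of Large White pigs, 35 days old, cultured for 24 h and left untreated. ChIP-seq, which enriches and sequences the DNA bound by a chosen protein or histone mark, was carried out for CTCF, H3K4me3 and H3K27ac with 2 replicates each, so that all 6 libraries describe 1 cell type in 1 condition. The labels do not say whether replicates came from separate fetuses or cultures, so the spread between them may be technical. The peak lists give positions and a fold enrichment over control, not read counts, so the depth at any peak is unknown. An H3K4me3 peak lay within 1 kb of the start of 10 of 10 fibroblast genes in both replicates (collagens, VIM, PDGFRA and others), and of 4 of 12 genes of other cell types (EPCAM, CDH1, MYOD1 and NEUROD1), beside 55.4% of all 28077 genes with such a peak in both replicates. The CTCF lists held 40289 and 44682 peaks, and 95.9% of the replicate 1 peaks on these chromosomes were shared.

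The sequences under some of the largest clusters are shown first. In the 5 largest clusters, similar CTCF sites recurred along the DNA. This was not the rule among dense clusters: alike sites, as defined below, occurred in 46 of the 645 clusters (7.13%). The motif learned from isolated peaks had the core CCANNAGNNGGC (N for any base), and a site is the best match within 100 bp of a summit. Each sequence is read 5′ to 3′ along the strand on which the motif reads towards that core, from the Sscrofa11.1 assembly, with the 19 bases of the motif in capitals and 10 bases on either side. The cluster of 10 peaks on chromosome 7 (chr7:27331824-27354525, first to last summit) had these sites:
Chromosome 7 peak 1 (chr7:27331801-27331839, forward strand): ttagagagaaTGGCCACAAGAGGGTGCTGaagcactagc
Chromosome 7 peak 2 (chr7:27334077-27334115, forward strand): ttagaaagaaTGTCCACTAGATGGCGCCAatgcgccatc
Chromosome 7 peak 3 (chr7:27335349-27335387, forward strand): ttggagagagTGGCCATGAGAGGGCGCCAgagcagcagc
Chromosome 7 peak 4 (chr7:27338787-27338825, forward strand): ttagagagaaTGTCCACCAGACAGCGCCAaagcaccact
Chromosome 7 peak 5 (chr7:27341237-27341275, forward strand): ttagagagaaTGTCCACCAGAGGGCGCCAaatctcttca
Chromosome 7 peak 6 (chr7:27343795-27343833, forward strand): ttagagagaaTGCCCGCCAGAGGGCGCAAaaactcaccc
Chromosome 7 peak 7 (chr7:27346141-27346179, forward strand): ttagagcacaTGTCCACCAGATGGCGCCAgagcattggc
Chromosome 7 peak 8 (chr7:27349174-27349212, reverse strand): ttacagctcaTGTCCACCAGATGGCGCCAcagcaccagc
Chromosome 7 peak 9 (chr7:27352786-27352824, reverse strand): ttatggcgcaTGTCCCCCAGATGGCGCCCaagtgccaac
Chromosome 7 peak 10 (chr7:27354509-27354547, reverse strand): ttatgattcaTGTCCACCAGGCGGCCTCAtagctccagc
In the first 7 sites the motif lay on the forward strand and in the last 3 on the reverse strand. The letters ttagag began 5 of the 10 sequences.

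The chromosome 4 cluster of 7 peaks (chr4:20931-38949), only 20930 bp from the end of the assembled chromosome, had a motif in 6 peaks, all on the reverse strand:
Chromosome 4 peak 2 (chr4:25530-25568, reverse strand): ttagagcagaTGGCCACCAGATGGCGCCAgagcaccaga
Chromosome 4 peak 3 (chr4:27269-27307, reverse strand): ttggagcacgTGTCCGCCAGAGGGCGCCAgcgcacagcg
Chromosome 4 peak 4 (chr4:29264-29302, reverse strand): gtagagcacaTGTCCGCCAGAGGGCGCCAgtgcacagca
Chromosome 4 peak 5 (chr4:32693-32731, reverse strand): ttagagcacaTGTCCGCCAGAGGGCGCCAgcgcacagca
Chromosome 4 peak 6 (chr4:34361-34399, reverse strand): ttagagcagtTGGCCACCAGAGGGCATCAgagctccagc
Chromosome 4 peak 7 (chr4:38940-38978, reverse strand): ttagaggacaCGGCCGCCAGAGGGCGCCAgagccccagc
The chromosome 17 cluster of 7 peaks (chr17:63057994-63072707), 421375 bp from the other end of that chromosome, had a motif in all 7 peaks, all on the forward strand:
Chromosome 17 peak 1 (chr17:63057955-63057993, forward strand): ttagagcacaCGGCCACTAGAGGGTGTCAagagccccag
Chromosome 17 peak 2 (chr17:63061566-63061604, forward strand): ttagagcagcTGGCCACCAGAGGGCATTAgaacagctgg
Chromosome 17 peak 3 (chr17:63063285-63063323, forward strand): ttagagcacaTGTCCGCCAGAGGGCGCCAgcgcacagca
Chromosome 17 peak 4 (chr17:63066717-63066755, forward strand): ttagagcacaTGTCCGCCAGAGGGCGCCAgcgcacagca
Chromosome 17 peak 5 (chr17:63069253-63069291, forward strand): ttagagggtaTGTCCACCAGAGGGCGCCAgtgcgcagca
Chromosome 17 peak 6 (chr17:63070948-63070986, forward strand): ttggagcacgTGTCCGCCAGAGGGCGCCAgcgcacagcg
Chromosome 17 peak 7 (chr17:63072661-63072699, forward strand): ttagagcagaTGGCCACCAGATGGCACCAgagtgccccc
These clusters on different chromosomes resembled each other site by site. In windows of 201 bp centred on the motif, chromosome 4 peak 3 was 99% identical to chromosome 17 peak 6, chromosome 4 peak 4 was 97.5% identical to chromosome 17 peak 4, and chromosome 4 peak 5 was 95.5% identical to chromosome 17 peak 3. The best partners of chromosome 4 peaks 2, 6 and 7 were chromosome 17 peaks 7, 2 and 1, at 85.1%, 84.1% and 73.1%. The order of the sites was therefore the same along both clusters when one was read in reverse, with chromosome 17 peak 5 left without a partner of its own (its best match, 77.6%, was chromosome 4 peak 4). In windows of 1001 bp the 6 pairs were between 80.9% and 96.3% identical. Only fragments whose ends mapped uniquely were kept by the authors, so at such sites the peaks rest on fragments that cover a difference between the copies.

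Same-strand arrays of alike sites were not limited to chromosome ends. The 6 sites of a cluster inside introns of XRRA1 on chromosome 9 (chr9:9214306-9231364) all lay on the reverse strand and began with ttagag or close variants of it:
Chromosome 9 peak 1 (chr9:9214304-9214342, reverse strand): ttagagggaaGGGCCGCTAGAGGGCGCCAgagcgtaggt
Chromosome 9 peak 2 (chr9:9218935-9218973, reverse strand): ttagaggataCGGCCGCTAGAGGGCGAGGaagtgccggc
Chromosome 9 peak 3 (chr9:9222957-9222995, reverse strand): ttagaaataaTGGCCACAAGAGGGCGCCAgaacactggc
Chromosome 9 peak 4 (chr9:9227349-9227387, reverse strand): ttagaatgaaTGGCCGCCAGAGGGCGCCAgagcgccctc
Chromosome 9 peak 5 (chr9:9229476-9229514, reverse strand): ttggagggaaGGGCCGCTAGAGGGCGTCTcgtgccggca
Chromosome 9 peak 6 (chr9:9231345-9231383, reverse strand): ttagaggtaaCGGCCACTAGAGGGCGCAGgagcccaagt
The cluster whose sites were most alike held 3 peaks on chromosome X (chrX:395118-399302), in intergenic sequence. Its sites are shown with 60 bases on either side, because the likeness ran well past the motif:
Chromosome X peak 1 (chrX:395060-395198, reverse strand): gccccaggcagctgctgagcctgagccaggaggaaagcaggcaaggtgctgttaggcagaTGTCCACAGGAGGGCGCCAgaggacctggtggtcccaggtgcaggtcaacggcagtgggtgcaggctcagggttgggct
Chromosome X peak 2 (chrX:398095-398233, reverse strand): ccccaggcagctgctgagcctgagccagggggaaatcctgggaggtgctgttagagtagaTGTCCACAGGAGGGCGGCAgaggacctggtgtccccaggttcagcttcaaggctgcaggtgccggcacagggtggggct
Chromosome X peak 3 (chrX:399253-399391, reverse strand): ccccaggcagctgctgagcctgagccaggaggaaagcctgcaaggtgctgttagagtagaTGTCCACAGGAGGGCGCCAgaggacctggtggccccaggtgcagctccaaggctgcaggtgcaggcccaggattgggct
Between these 3 windows the identity over 201 bp was between 81.1% and 88.6%, with a median of 87.1%.

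A stretch of 308 kb of chromosome X (chrX:6478475-6786615), between SHROOM2 and WWC3 and without an annotated gene under any of its clusters, held 6 clusters with 22 peaks. The best-scoring site of each is shown, in chromosome order:
Chromosome X, peak 2 (chrX:6480729-6480767, forward strand): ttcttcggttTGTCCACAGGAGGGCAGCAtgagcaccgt
Chromosome X, peak 2 (chrX:6633869-6633907, reverse strand): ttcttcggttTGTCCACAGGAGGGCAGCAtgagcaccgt
Chromosome X, peak 2 (chrX:6667320-6667358, forward strand): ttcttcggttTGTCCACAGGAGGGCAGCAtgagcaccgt
Chromosome X, peak 2 (chrX:6696051-6696089, reverse strand): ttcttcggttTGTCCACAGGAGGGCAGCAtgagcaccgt
Chromosome X, peak 3 (chrX:6737707-6737745, reverse strand): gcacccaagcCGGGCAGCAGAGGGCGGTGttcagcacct
Chromosome X, peak 3 (chrX:6786616-6786654, forward strand): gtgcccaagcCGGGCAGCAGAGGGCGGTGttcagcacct
The first 4 sequences were identical over all 39 bases, although 2 lay on the forward and 2 on the reverse strand. The last 2 belonged to another type of site, with the same 19 bases in capitals. The motif sequence of the first 4 occurred 8 times among the 20 sites of the stretch and 10 times among all shared peaks, all on chromosome X. The fold enrichments of the 22 peaks were moderate, from 6.40 to 32.2 in replicate 1 and from 8.18 to 42.01 in replicate 2, and none overlapped an H3K4me3 or H3K27ac peak in any of the 4 histone libraries.

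For contrast, the sites of the cluster with the highest mean fold enrichment (chrX:15688603-15693474), 6450 bp from the start of PDHA1, which encodes a subunit of pyruvate dehydrogenase, shared little beyond the motif core, with a median identity of 38.8%:
Chromosome X peak 1 (chrX:15688634-15688672, reverse strand): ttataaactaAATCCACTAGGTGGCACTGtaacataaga
Chromosome X peak 2 (chrX:15692035-15692073, forward strand): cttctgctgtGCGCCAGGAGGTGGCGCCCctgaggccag
Chromosome X peak 3 (chrX:15693447-15693485, forward strand): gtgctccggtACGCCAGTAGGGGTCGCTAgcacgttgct
The sites of a cluster at PDGFRA, a growth factor receptor of fibroblasts, were likewise different from each other in the 2 peaks that had a motif:
Chromosome 8 peak 2 (chr8:40970003-40970041, forward strand): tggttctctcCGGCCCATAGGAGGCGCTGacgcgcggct
Chromosome 8 peak 3 (chr8:40971472-40971510, reverse strand): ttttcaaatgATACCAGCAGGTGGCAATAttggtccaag

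Most clusters were small. Of the 645, 519 (80.5%) had 3 peaks, 93 had 4, 22 had 5, 6 had 6, 3 had 7, and 1 each had 8 and 10. From first to last summit a cluster spanned a median of 6172 bp, with quartiles of 4872 and 7624 bp and extremes of 2066 and 22702 bp. Neighbouring summits in clusters were a median of 2807 bp apart, against 31195 bp for neighbouring shared peaks over these chromosomes. The largest distance inside a cluster was 4995 bp and the smallest distance left outside was 5004 bp. Among all shared peaks, 499 neighbours lay 4.5 to 5 kb apart and 505 lay 5 to 5.5 kb apart, so no gap in the distances stood at the limit.

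**Figure D1:**
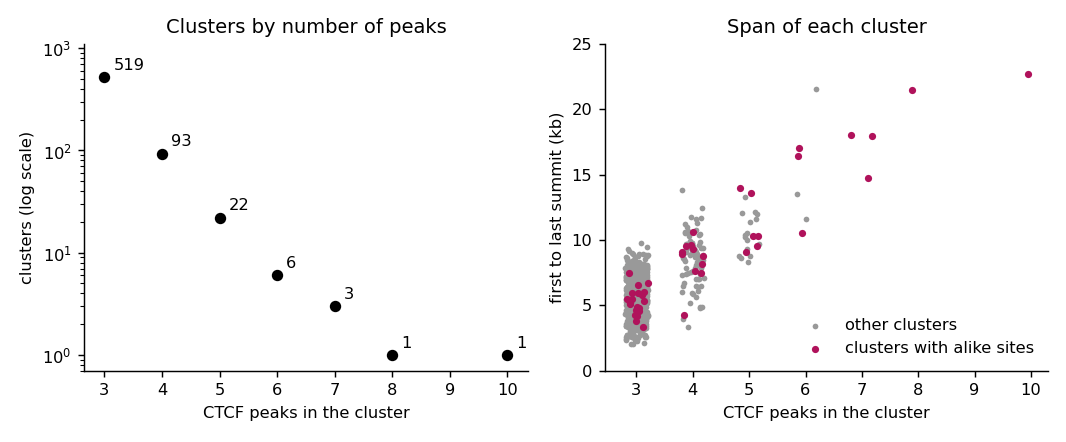
Left, number of dense clusters (log axis) against the number of CTCF peaks in the cluster; right, distance from first to last summit in kb of each cluster, 1 point per cluster, spread sideways for visibility. Clusters in which any pair of sites was at least 60% alike (darker points) make up 46 of 645 and include all 5 clusters of 7 or more peaks.

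Clusters were unevenly spread over the chromosomes. On chromosome 12, 8.66% of shared peaks lay in clusters (43 clusters, or 6.98 per 10 Mb), on chromosome 2 it was 7.65% (66 clusters) and on chromosome 3 it was 7.34% (52 clusters). Chromosome 13 had the lowest share (3.47%), and on chromosome X, with 9.22 shared peaks per Mb, the share was 4.74% (16 clusters). Chromosome 12 was also the one with the most annotated genes per Mb (23.8) and the most shared CTCF peaks per Mb (26.1), and the part of either in its share of clusters was not tested.

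Joining shared peaks from either replicate gave much the same clusters. Only peaks that overlapped one of the other replicate were joined in either case, so this likeness follows in part from the rule. Every peak of a cluster had its own replicate 2 peak in 540 clusters, and in 105 clusters at least 2 replicate 1 peaks lay under 1 wider replicate 2 peak, which was the only one in 3 clusters. When replicate 2 peaks were joined by the same rule, 572 clusters resulted, and 566 of the 645 clusters (87.8%) overlapped one of them. Of 6326 replicate 2 peaks without a partner in replicate 1, 14 lay inside a cluster.

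Clustered peaks were a little stronger than isolated ones. Their median fold enrichment was 22.1 in replicate 1 and 26.0 in replicate 2, against 20.2 and 22.8 for isolated peaks and 22.0 and 25.6 for runs of 2. Their median width was 707 and 839 bp, against 681 and 801 bp. Within a cluster the peaks differed widely: the strongest had a median of 3.32 times the fold enrichment of the weakest in replicate 1 and 3.22 times in replicate 2. The strongest peak was the same one in both replicates in 506 clusters (78.4%). In clusters of 3, the middle peak was the strongest in 31.4% and 31.8%, so the middle position was not favoured. Across peaks, the fold enrichments of the replicates had a Spearman's rho of 0.886 in clusters and 0.947 in isolated peaks, given as a description over peaks of the same libraries. Where 1 replicate 2 peak covered several replicate 1 peaks, all of them were given its value.

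The cluster of 10 peaks overlapped a long non-coding RNA gene (LOC110261504), its start included, and the 3′ end of KHDRBS2, which encodes an RNA-binding protein. Along it, in order, the fold enrichment in replicate 1 was 14.3, 36.0, 10.5, 43.1, 19.05, 30.8, 37.8, 25.6, 30.8 and 11.6. In replicate 2 it was 13.0, 30.8, 7.24, 24.95, 25.7, 26.3, 37.2, 31.2, 31.2 and 14.0. The first and last peaks and the third were low in both replicates, the replicates disagreed most at the fourth, and none of the 10 peaks overlapped a histone mark peak in any library. The score of the motif did not follow these values: the fourth site, with the highest replicate 1 value, had a score of 11.9, and the fifth, with 19.05-fold enrichment, had 25.1, on the log2 scale of the motif matrix.

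The cluster of 8 peaks (chr10:12534149-12555615) lay inside DEGS1, whose product makes the double bond of ceramide, and crossed a long non-coding RNA gene on the other strand (LOC110255640). Its fold enrichments were 9.52, 38.6, 33.5, 48.4, 23.2, 35.9, 43.3 and 43.4 in replicate 1. In replicate 2 they were 7.74, 28.9, 32.4, 28.6, 15.4, 29.4, 37.0 and 46.1. Its 5 first motifs were forward and its last 3 reverse, so that they pointed towards each other in the middle, as on chromosome 7. The last peak, and no other, overlapped H3K4me3 and H3K27ac peaks, in both replicates of each.

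The chromosome 4 cluster had fold enrichments of 6.98, 19.2, 23.4, 15.7, 26.2, 15.1 and 36.7 in replicate 1 and of 15.3, 25.1, 18.6, 22.2, 32.2, 22.2 and 31.98 in replicate 2. The peak without a motif was the lowest in both. Its partner on chromosome 17 lay over the last exons and introns of PCMTD2, with fold enrichments of 33.98, 12.2, 11.06, 12.2, 36.1, 9.89 and 9.31 in replicate 1. In replicate 2 these were 27.4, 13.2, 11.6, 14.5, 43.3, 12.9 and 14.5. The peaks of 33.98 and 36.1 in replicate 1 stood out in both replicates. The fifth was the one without its own partner on chromosome 4, and the only one to overlap a mark (H3K27ac, in both replicates).

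On chromosome 12, 3 clusters with 13 peaks followed each other over 47.1 kb, 76.3 kb from the chromosome end, all inside LOC110255247, annotated as a zinc finger protein gene. This was the protein-coding gene with the most clustered peaks in its body. Its cluster of 7 (chr12:105382-123370) had fold enrichments of 14.0, 29.3, 36.0, 11, 7.82, 10.8 and 9.92 in replicate 1. In replicate 2 they were 14.8, 25.2, 31.0, 15.95, 5.98, 11.8 and 11.2. The peaks of 29.3 and 36.0 in replicate 1 were the strongest in both, all 7 motifs were on the reverse strand, and 12 of the 13 motifs of the stretch were. At the start of chromosome 3, 3 clusters with 10 peaks lay within 73.2 kb, 48.9 kb from the end, each of them with its motifs on 1 strand. On chromosome 15, 2 clusters with 9 peaks lay within 28.01 kb, outside genes. No peak in these stretches overlapped an H3K4me3 or H3K27ac peak in any library.

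**Figure D2:**
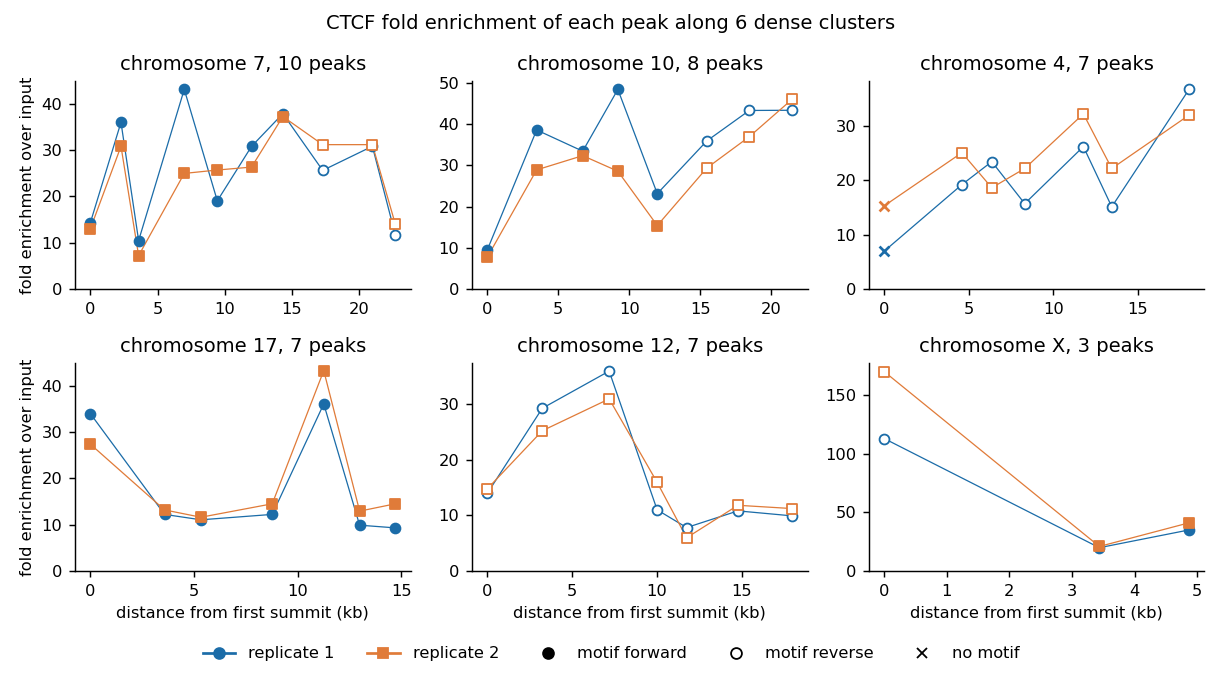
CTCF fold enrichment over control (vertical axis, starting at 0, with its own scale in each panel) of each peak against its distance in kb from the first summit, in the 5 clusters with the most peaks and in the cluster with the highest mean fold enrichment. Circles are replicate 1 and squares replicate 2, filled for a motif on the forward strand, open for the reverse strand, and a cross for no motif; the chromosome X cluster reaches 113.0 and 170.1, well above the others.

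Among the clusters of 6 peaks, that of XRRA1 had the highest mean fold enrichment over both replicates (38.9, above the 35.4 of the one over LOC100517809). Its values were 40.5, 50.6, 40.8, 48.1, 37.8 and 20.2 in replicate 1 and 36.8, 47.2, 42.8, 42.8, 41.1 and 18.4 in replicate 2. Its first peak overlapped H3K4me3 in replicate 1 only and its second in both. The cluster over LOC100517809 (chr2:77997051-78013503) had 3 forward motifs followed by 3 reverse motifs and no mark. An intergenic cluster on chromosome 6 (chr6:60532158-60542669) had 6 forward motifs and no mark. A cluster inside introns of KIAA1671 (chr14:43069863-43081505) had motifs in 5 of 6 peaks, no neighbouring sites alike (at most 49.3% identical) and 1 peak with H3K27ac in both replicates. A cluster in the protocadherin gamma genes (chr2:143036523-143058048) was different again: 2 of its 6 peaks had a motif, 5 and 6 of them overlapped H3K4me3 and 3 and 2 overlapped H3K27ac in replicates 1 and 2. The cluster with the most peaks on chromosome X (chrX:6478475-6488038) was the first of the stretch described above.

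The chromosome X cluster near PDHA1 had fold enrichments of 113.0, 19.9 and 35.0 in replicate 1 and of 170.1, 20.9 and 41.1 in replicate 2. Its mean therefore rested on its first peak, which overlapped no mark, while the other 2 overlapped H3K4me3 in both replicates.

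Sites were called alike where the 201 bp around their motifs were at least 60% identical by edit distance, a limit chosen after the values were seen. Of 1211 pairs of neighbouring sites in clusters, 87 (7.18%) were alike, whereas of 26253 pairs of consecutive isolated sites, 97 (0.369%) were. The median identity was 46.3% in clusters and 45.3% in isolated pairs, whose 99th percentile was 52.2%, so that most clusters consisted of sites no more alike than unrelated ones. Among isolated pairs from sequence of at least 58% GC the 99th percentile was 54.2%. A cluster was counted as having alike sites where any pair of its sites, neighbours or not, reached this limit. Clusters with more peaks have more pairs in which this can happen, and the other sites of such a cluster need not be alike. In the cluster over TJP3, for example, the median identity was 45.3% and the highest 60.7%. By this count, alike sites occurred in 46 clusters (7.13%) with 194 peaks. Such clusters were 14 of the 33 with at least 5 peaks, and 7 of the 16 on chromosome X. Of these 7, 6 lay in the stretch of 308 kb described above. Within 1 Mb of a chromosome end lay 12 of the 46 clusters (26.1%) and 20 of the other 599 (3.34%). Of the 12, 3 lay in the stretch on chromosome 3 and 3 in that on chromosome 12, so few places carry these counts. Of all clustered peaks, 118 (5.58%) were that close to an end, against 2.01% of isolated peaks and 2.29% of all shared peaks.

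The repeated sites were related between chromosomes. Among the 5 largest clusters, the median identity between sites of different clusters was between 52.7% (chromosomes 7 and 10) and 64.4% (chromosomes 4 and 17). When 1 site of the chromosome 17 cluster (peak 4) was compared with all 34243 sites of shared peaks, 118 were at least 60% alike, on 18 chromosomes. Of these, 67 were in clusters (23 clusters, 18 of them outside the 5 largest), which was 3.499% of clustered sites. In runs of 2 there were 21, and 30 were isolated (0.114% of isolated sites). Within 1 Mb of a chromosome end lay 55 of the 118. The reference site was itself clustered, and its cluster was picked for its size. The letters TTAGAG stood within the 10 bases before the motif, on its strand, in 70 of 187 sites of the clusters with alike sites (37.4%) and in 4 of 1728 sites of the other clusters (0.231%). The share was 0.266% of isolated sites and 0.534% of all sites of shared peaks, and these letters were chosen after the sequences were seen. Motifs identical over all 19 bases within a cluster occurred in 16 of the 645 clusters.

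A CTCF motif was found within 100 bp of the summit in 1915 of 2114 clustered peaks (90.6%, 95% exact binomial interval 89.3 to 91.8%), beside 89.5% of all shared peaks. Isolated peaks on even-numbered autosomes and X, which had no part in learning the motif, had one in 90.01% (89.5 to 90.5%), so the shares differed by less than the counting error. Such intervals cover counting error only, since peaks of 1 library are not replicates. Windows 1 kb from the summits had a motif in 14.2% near clustered and 10.4% near isolated peaks. The median motif score was 17.7 in clusters and 16.99 in isolated peaks, and 20.8 in clusters of 6 or more. At least 2 motifs were found in 15.9% of clustered peaks (14.4 to 17.6%), 11.7% of isolated peaks and 12.4% of all shared peaks.

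Neighbouring motifs in clusters more often faced the same way. Of the 1211 neighbouring pairs, 728 (60.1%, 57.3 to 62.9%) were on the same strand, 15.0% were convergent (pointing towards each other) and 24.9% divergent. Independent strands would give 50% same and 25% convergent, so the convergent share was below that level and the divergent share close to it. In clusters of 3, 4 and 5 peaks the same-strand share was 58.2%, 59.8% and 60.6%, and in clusters of 6 or more it was 89.3% (50 of 56 pairs, 78.1 to 96.0%). These 56 pairs came from a few clusters, most of them with alike sites, and pairs of the same cluster are not independent. Pairs of alike sites were on the same strand in 85.1% (74 of 87), and other pairs in 58.2% (55.2 to 61.1%). In runs of 2 the share was 56.2%. Among all shared peaks, neighbours under 2 kb apart were on the same strand in 59.4%, those 2 to 3.5 kb apart in 56.6%, and those 3.5 to 5 kb apart in 56.7%. The share was 53.8% for neighbours 5 to 7.5 kb apart, 51.0% for 7.5 to 10 kb and 50.6% for 10 to 50 kb, so it was lower beyond 5 kb than within it. A low convergent share was not particular to clusters, and was 15.8% in runs of 2. Among all shared peaks, clustered ones included, it was 16.1% under 2 kb, 15.6% at 2 to 3.5 kb and 15.2% at 3.5 to 5 kb. Farther apart it was 19.03% (5 to 7.5 kb), 17.99% (7.5 to 10 kb) and 21.96% (10 to 50 kb).

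**Figure D3:**
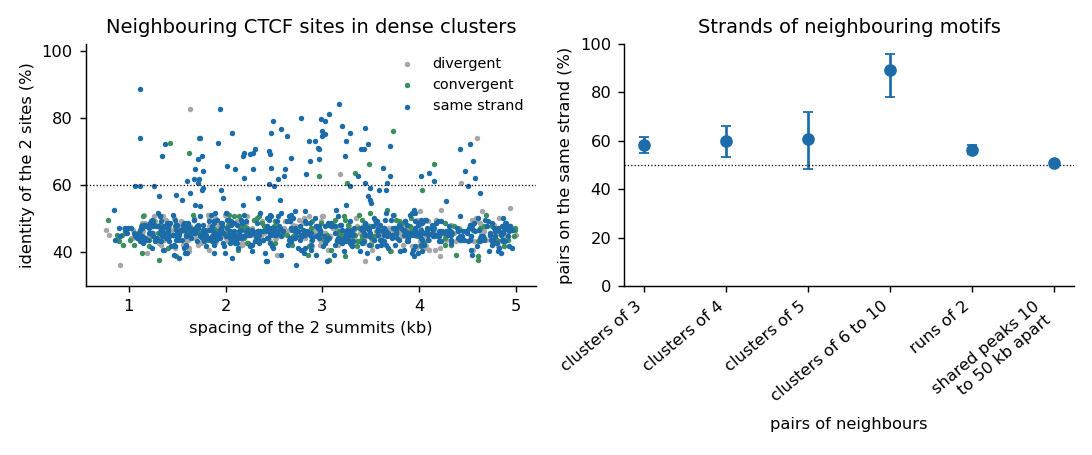
Left, identity in % of the 201 bp around neighbouring motifs against the spacing of their summits in kb, 1 point per pair, with the limit of 60% dotted; right, share of neighbouring motif pairs on the same strand in %, with 95% exact binomial intervals, and the 50% of independent strands dotted. Pairs above the limit are mostly on the same strand. The share in clusters of 6 to 10 peaks, 89.3%, stands above the others and rests on pairs from a few clusters.

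In the 389 clusters of 3 in which every peak had a motif, the order of strands was uneven. A reverse motif followed by 2 forward motifs occurred in 74, and 2 reverse motifs followed by a forward one in 72, both with the outer motifs pointing away from each other. All 3 were reverse in 67 and forward in 62. The 4 orders with a convergent pair inside were the rarest, at 32, 29, 27 and 26. Over the 476 clusters of any size with a motif in every peak, all motifs were on 1 strand in 149 (31.3%), and the first and last motifs were divergent in 35.9%, convergent in 14.7% and on the same strand in 49.4%.

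Clustered peaks overlapped histone mark peaks more often than isolated ones. H3K4me3 peaks were overlapped by 30.7% and 30.5% of clustered peaks in replicates 1 and 2, by 26.8% and 27.3% of peaks in runs of 2 and by 20.7% and 21.6% of isolated peaks. The shares over all shared peaks were 22.3% and 23.1%. H3K27ac peaks were overlapped by 33.4% and 35.3% of clustered peaks, 32.5% and 34.3% of peaks in runs of 2 and 26.6% and 27.6% of isolated peaks, and by 28% and 29.2% of all shared peaks. The clustered minus isolated difference was 9.48 ± 0.864 percentage points for H3K4me3 and 7.32 ± 0.624 for H3K27ac (mean ± SD, n = 2), in the same direction in both libraries of each mark and larger than the spread between them. With 2 libraries the exact two-sided permutation test gave p = 0.5, the smallest it can give. Neighbouring clustered peaks can lie under 1 mark peak, so their overlaps are not independent of each other.

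The difference moved with base composition. The median GC content of the 201 bp around the summit was 55.2% in clustered and 48.3% in isolated peaks. In the quartile of shared peaks with the highest GC content (at least 57.7%), which held 884 clustered peaks, it turned: 47.6% and 45.1% of clustered peaks overlapped H3K4me3, against 50.4% and 48.1% of isolated peaks, and 42.9% and 46.2% overlapped H3K27ac, against 44.3% and 48.2%. In the quartile with the lowest GC content, the 243 clustered peaks had 16.9% and 21.4% H3K4me3, against 7.14% and 10.3%. They had 30.04% and 28.4% H3K27ac, against 18.5% and 17.5%. The differences were smaller in between. In the second quartile (390 clustered peaks) H3K4me3 was at 16.2% and 18.5%, against 11.7% and 13.7%, and H3K27ac at 24.4% and 24.6%, against 21.1% and 21.1%. In the third (597 clustered peaks) H3K4me3 was at 20.9% and 20.4%, against 18.2% and 18.6%, and H3K27ac at 26.8% and 29.1%, against 25.3% and 26.9%. The part of GC content in the difference was not tested further. Split by fold enrichment, the difference kept its direction in each quartile for H3K4me3, while in the strongest quartile H3K27ac was overlapped by 25.6% and 27.5% of clustered and 26.0% and 26.5% of isolated peaks.

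The largest clusters went the other way. Peaks in clusters of 3, 4 and 5 overlapped H3K4me3 in 30.9% to 32.7% and H3K27ac in 30.9% to 37.1%, whereas the 75 peaks in clusters of 6 or more overlapped H3K4me3 in 13.3% and H3K27ac in 9.33%, with the same values in both replicates and below those of isolated peaks. Most clusters of 6 or more held alike sites, and those without them were mixed. H3K4me3 was overlapped by 5 and 6 of 6 peaks in the protocadherin gamma cluster. Over CUX1 and SH2B2 it was 2 and 2 of 6, and over KIAA1671 none. For H3K27ac these numbers were 3 and 2, 1 and 2, and 1 and 1. The parts of size and likeness were not tested. The 194 peaks of clusters with alike sites overlapped H3K4me3 in 7.22% and 6.70% and H3K27ac in 4.64% and 6.19%. The 1920 peaks of the other clusters had 33.1% and 32.9% H3K4me3 and 36.4% and 38.3% H3K27ac. The GC content of the peaks with alike sites, 56.2% in the median, was close to the 55.0% of the others. Their place differed: a gene start lay within 5 kb of 8.25% of them and of 34.7% of the others, and 61.3% against 40.7% were intergenic. The part of gene distance in the mark contrast was not tested. Within 1 Mb of chromosome ends, clustered peaks overlapped H3K4me3 in 26.3% and 24.6%, and isolated peaks in 32.3% and 30.5%.

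**Figure D4:**
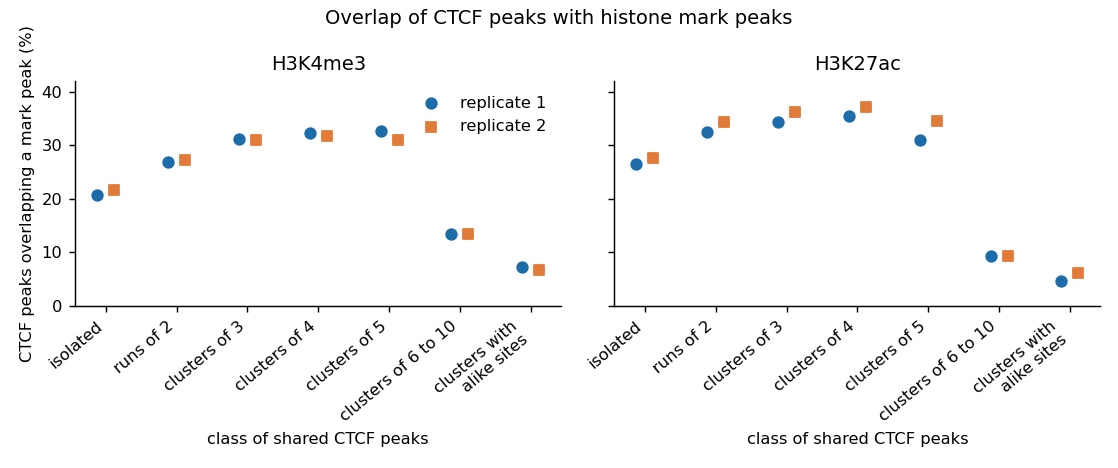
Share in % of CTCF peaks that overlap an H3K4me3 (left) or H3K27ac peak (right) for isolated peaks, runs of 2, clusters by number of peaks, and clusters with alike sites; circles are replicate 1 and squares replicate 2 of the mark. The share is higher from isolated peaks to clusters of 3 and 4. It drops to 13.3% and 9.33% in clusters of 6 to 10, most of which held alike sites.

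Taken by cluster, marked and unmarked peaks were often neighbours. In replicates 1 and 2, 278 and 280 clusters had H3K4me3 on none of their peaks, 311 and 304 on some and 56 and 61 on all. For H3K27ac, 286 and 265 clusters had none, 273 and 287 some and 86 and 93 all. Each mark was present in both replicates on at least 1 peak, not always the same one, in 277 clusters (42.9%). In 192 clusters (29.8%) there was no mark in any library. A cluster of several peaks has more occasions to hold a mark than a single peak. No like share was counted for runs of 2 or isolated peaks, so these shares cannot be set against the shares of peaks above. Around the centre of a cluster, mark peaks covered a wide stretch. Part of this width follows from the rule, which spreads at least 3 summits over several kb, and from aligning clusters on their middle and isolated peaks on their summit. At 5 kb before the centre, 13.0% and 13.5% of clusters lay inside an H3K4me3 peak, against 4.07% and 4.66% at the same distance from isolated summits. At the centre the shares were 17.8% and 19.2% for clusters and 17.3% and 18.3% for isolated summits. The surroundings differed too, and at 20 kb before the centre H3K27ac covered 10.7% and 11.9% of positions, against 8.27% and 8.61% before isolated summits.

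**Figure D5:**
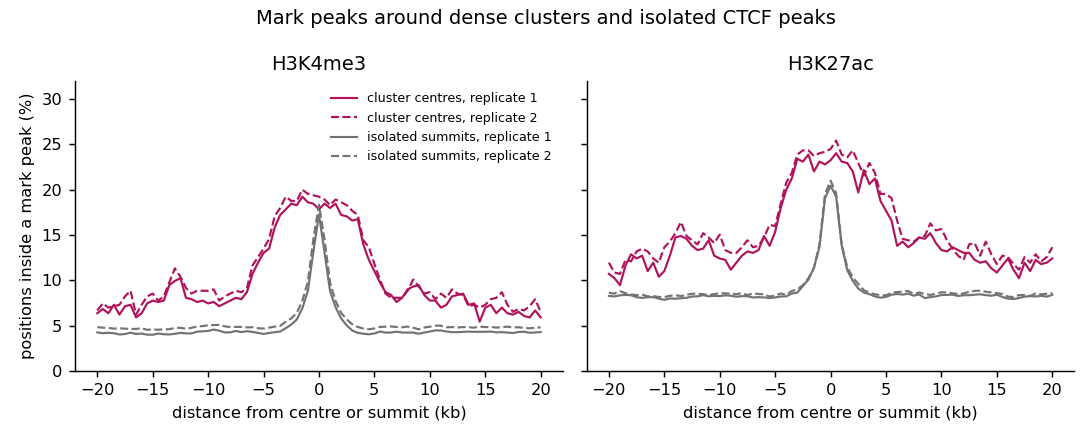
Share in % of positions that lie inside an H3K4me3 (left) or H3K27ac peak (right) against the distance in kb from the centre of dense clusters or from isolated CTCF summits; solid lines are replicate 1 and dashed lines replicate 2. Isolated peaks are aligned on the summit and clusters on the middle of several summits, so the wider shape of the clusters follows in part from the alignment; H3K4me3 is at 17.8% and 19.2% at their centre.

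Clustered peaks more often had a gene start within a few kb, except in the clusters with alike sites. A gene start was within 5 kb of 683 clustered peaks (32.3%, 30.3 to 34.3%), against 19.5% of isolated and 21.6% of all shared peaks. The same start can be counted for several peaks of a cluster, which the interval does not allow for. Within 1 kb the shares were 10.1% (213 peaks, 8.82 to 11.4%), 8.12% and 8.51%. This difference of 1.95 percentage points came down to 0.137 when at least 4 peaks were asked of a cluster. In clusters with alike sites, 8.25% of peaks had a start within 5 kb and 1.55% within 1 kb, both below the isolated peaks. The summit lay in an exon in 14.1% of clustered, 8.28% of isolated and 9.09% of all shared peaks, and in an intron in 43.3% of clustered and 49.6% of isolated peaks. The intergenic shares were 42.6% and 42.1%. An annotated gene was overlapped by 458 clusters (71.0%), and 159 (24.7%) held a gene start. These shares are of spans of several kb, not of single summits. No share of runs of 2 or of windows of equal length was counted beside them, so they are not read as a trait of clusters. Among peaks over 1 kb from any start, the H3K4me3 difference was of similar size. There H3K4me3 was overlapped by 24.99% of clustered peaks in either replicate, against 14.9% and 16.03% of isolated peaks. A start still lay within 5 kb of 24.7% of these clustered and 12.35% of these isolated peaks, so the groups were not matched for gene distance. Within 1 kb of a start the direction turned, with 82.2% and 79.8% of clustered and 85.3% and 85.2% of isolated peaks.

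Genes of several classes were near dense clusters. Of all 28077 genes, 786 (2.8%) had a clustered peak within 5 kb of the gene body, and gene lists are read against this share, which does not take the length or grouping of genes into account. Among 28 fibroblast and extracellular matrix genes there were 4 (THBS1, PDGFRA, ACTA2 and BGN). Among 29 imprinted genes there were 3 (PLAGL1, CDKN1C and MEST), among 36 HOX genes 3 (HOXD8, HOXD9 and HOXD10), and among 18 genes of CTCF, cohesin and their partners 1 (MAZ). Of 36 protocadherin genes, which stand in tandem so that neighbours share the same peaks, 10 had one. Of 282 zinc finger genes, matched by symbols that begin with ZNF, ZSCAN or ZFP, 7 had one; LOC110255247, whose symbol does not, is not among them. Of 964 olfactory receptor genes none had one. Of 3 genes that shape the structure of the X chromosome none had one either.

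At PDGFRA, the receptor that marks fibroblasts, the 3 peaks lay 1.1 kb before and 3.45 and 4.95 kb after the gene start, with fold enrichments of 15.6, 17.3 and 23.8 in replicate 1 and 21.9, 28.4 and 28.4 in replicate 2. All 3 overlapped H3K4me3 and H3K27ac in both replicates, unlike the arrays of alike sites. At THBS1, which encodes the matrix protein thrombospondin 1, the peak 0.747 kb before the start was the strongest, at 33.1 and 44.5, beside 11.4 and 12.3 for the peak inside the gene and 18.6 and 20.6 for the one 4.32 kb before the start. BGN, which encodes the proteoglycan biglycan, had 5 peaks along its body and just behind it. They were weak, between 4.33 and 13.9 in replicate 1 and between 10.003 and 21.3 in replicate 2, and H3K4me3 covered the first 2 only, those nearest to the start. Near ACTA2, smooth muscle actin, 2 peaks lay 18.6 and 20.5 kb from the start, at 36.7 and 32.7 in replicate 1 and 32.8 and 32.1 in replicate 2.

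The HOXD genes, transcription factors that set position along the body and the limbs, had a cluster of 4 peaks (fold enrichments 11.7, 25.8, 10.3 and 37.9 in replicate 1 and 12.8, 25.5, 10.6 and 38.2 in replicate 2). The order of the values was the same in both replicates, the strongest lay 2.47 kb before the start of HOXD8, and 3 of the 4 peaks overlapped both marks in all libraries. At CDKN1C, an inhibitor of cell division expressed from the maternal copy, 2 peaks of a cluster of 4 lay 0.195 and 3.6 kb before the start, with 17.99 and 30.7 in replicate 1 and 19.3 and 27.7 in replicate 2. At MEST, expressed from the paternal copy, 4 intronic peaks lay 7.26 to 16.6 kb from the annotated start, and the one at 11.8 kb was the strongest, at 28.6 and 33.9. The peaks at 10.2, 11.8 and 16.6 kb overlapped H3K4me3 in both replicates. Those at 11.8 and 16.6 kb also overlapped H3K27ac in both, and the peak at 7.26 kb overlapped neither mark. Neither mark was found at the annotated start. At PLAGL1, a zinc finger transcription factor gene, 3 peaks lay at the 3′ end of the gene, 66.5, 69.2 and 71.3 kb from the start, the first in an intron, the next in an exon and the last just behind the gene. Their fold enrichments were 15.1, 26.1 and 72.7 in replicate 1. In replicate 2 they were 17.2, 89.2 and 89.2, where 1 replicate 2 peak covered the last 2. Peaks near imprinted genes were not separated by parental copy in these data.

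RET, a receptor tyrosine kinase, had 6 clustered peaks in its body, from 2 clusters. In the cluster at its start the peak 2.21 kb inside the gene was the strongest, at 34.2 and 45.2, and overlapped H3K4me3 in both replicates. The others there were between 5.51 and 8.08 in replicate 1 and between 4.82 and 6.4 in replicate 2. Of the tandem protocadherin genes, a cluster of 4 (among LOC110255294 and its neighbours) had fold enrichments of 7.16, 31.4, 16.5 and 36.7 in replicate 1 and of 9.29, 26.8, 15.3 and 25.9 in replicate 2. The first was the lowest in both replicates and the only one of the 4 without H3K4me3 in either. ZNF503, which encodes a transcriptional repressor, had 4 peaks, all with both marks in both replicates, at 37.9, 8.66, 10.9 and 5.36 in replicate 1 and at 47.8, 47.8, 28.8 and 6.67 in replicate 2, where the first 2 shared a peak. MAZ, a zinc finger protein found together with CTCF at many sites, had 2 peaks of a cluster near it, at 19.96 and 5.07 in replicate 1 and 15.8 and 3.71 in replicate 2, both with both marks in all libraries.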

How the data were processed

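ChIP-seq of CTCF, H3K4me3 and H3K27ac in PEFs gave 6 libraries, 2 per target, grouped by the sample labels. Following the methods of the study, the authors aligned read pairs by bowtie2, used only those whose 2 ends had a unique position, took out duplicates by Picard and ran MACS2 for narrow peaks on every library by itself. Columns of the deposited lists are a whole-number score (left unused here), the fold enrichment (a ratio over control) and the −log10 of the p-value and of the q-value. The lists carry no counts, and the 2 input samples were not analysed. The paper states a q-value limit of 0.01, whereas the deposited lists reach q-values of 0.0432 to 0.0499; they were used as deposited. Positions were read on Sscrofa11.1 with its RefSeq annotation.

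Summits were the peak start plus the deposited offset. The motif of 19 bases was learned by expectation maximisation on odd-numbered autosomes, from the 600 isolated shared peaks with the highest mean fold enrichment, and searched at an exact p of 0.0001 per position. Overlap required 1 bp. Shares have 95% exact binomial (Clopper-Pearson) intervals, and mark differences were compared over the 2 libraries of a mark. Identity was computed with edlib 1.3.9.post1, positions were read with pysam 0.24.0, and Python 3.11.15, NumPy 2.4.6, pandas 2.3.3 and SciPy 1.17.1 were used. The joining of peaks, overlap, motif search and identity were tested on simulated data. Alternatives were other limits of distance, cluster size, overlap and q-value, and leaving out each replicate.

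The members and gene lists were chosen with earlier results of these data known. Clusters described one by one were the 10 with the most peaks (ties by higher mean fold enrichment, which left out 1 of the clusters of 6, on chromosome 3 over CUX1 and SH2B2), the one with the highest mean fold enrichment, the one with the most peaks on X and the one whose sites were most alike. Genes were those of the lists with a clustered peak within 5 kb, and the 5 protein-coding genes with the most clustered peaks in the body. Protocadherin and olfactory receptor genes were matched by RefSeq product name, a choice made after the symbols were seen to be missing. The clusters on chromosomes 4, 17, 9 and at PDGFRA whose sequences are printed, and the stretches with several clusters of alike sites (at most 200 kb between neighbours), were chosen after their values were seen.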

Additional observations from a re-analysis of the deposited data

Results flagged for a closer look

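Dense clusters also occurred in sequence outside the comparisons above. On unplaced scaffolds and chromosome Y there were 415 shared CTCF peaks, and the same rule joined 51 of them (12.3%) into 15 clusters, all on 8 unplaced scaffolds, the largest with 5 peaks. The share was above the 5.53% of chromosomes 1 to 18 and X, and the difference was not tested.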

How the results depend on the processing

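No paired analysis was possible because the replicates of different marks share only a number and no groups of libraries were compared with each other. The count and share of clusters follow the limits. With neighbours at most 3 kb apart there were 221 clusters with 1.81% of shared peaks, at most 10 kb apart 1711 with 15.5%, and with at least 4 peaks 126 with 1.46%. The share was 4.62% with overlap of at least 50% of both peaks, 5.28% with a CTCF −log10 q of at least 5, 4.89% with replicate 2 peaks joined and 5.05% without clusters of alike sites. Without either CTCF replicate, the number was between 698 and 824 and the share between 5.74% and 6.1%.

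Among the alternatives run, the clustered minus isolated difference in H3K4me3 overlap turned only in GC-rich peaks, to −2.86 percentage points (−1.76 for H3K27ac). H3K4me3 overlap also went the other way in peaks within 1 kb of a gene start and within 1 Mb of chromosome ends. So it did in clusters of 6 or more and in clusters with alike sites. These subsets, given above, were not among the alternatives. The H3K4me3 difference was 12.1 with 3 kb, 8.29 with at least 4 peaks, 8.41 with 50% overlap and 8.15 with replicate 2 peaks joined. It was 8.45 at the CTCF summit only and 11.9 without clusters of alike sites. It lay between 9.82 and 10.98 without a CTCF replicate and between 8.87 and 10.1 without an H3K4me3 replicate. For H3K27ac the values were 9.08 with 3 kb, 8.24 with 10 kb, 4.89 with at least 4 peaks, 6.46 with 50% overlap, 6.6 with replicate 2 peaks joined, 6.67 at the summit, 6.65 with summits under 1 kb apart counted as 1 and 10.2 without clusters of alike sites. They lay between 7.63 and 9.84 without a CTCF replicate and between 6.88 and 7.76 without an H3K27ac replicate.

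The difference for gene starts was 1.95 percentage points within 1 kb, 12.8 within 5 kb and 0.137 with at least 4 peaks. The motif difference of 0.578 points was −0.00855 without clusters of alike sites. The same-strand share was 64.5% with at least 4 peaks, 56.3% with 10 kb and 56.7% without clusters of alike sites. Leaving out clusters of alike sites, peaks near chromosome ends or peaks of lower GC content was chosen after the values were seen, and the cause of the shifts was not tested.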
